A study of Rattus norvegicus with 8 samples.

Results

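The mRNAs of 8 amino acid transporter genes were followed through the 2 compartments of cultured rat hippocampal neurons, with and without 48 h of picrotoxin (PTX). The genes are Slc36a1, Slc36a4, Slc7a5, Slc7a8, Slc7a10, Slc7a11, Slc7a14 and Slc3a2. They were found by symbol, all 8 were present among the 28909 symbols of the count table, and all 8 passed the filter on low counts. The set was chosen by its measured PTX responses, because Slc36a1, Slc7a8 and Slc7a14 differed between the compartments. The PTX responses of the 8 genes are therefore described without a test, and the difference between the compartments over control and PTX cultures together, which the choice did not use, is tested.

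Primary hippocampal neurons of Sprague-Dawley rats grew on porous filter inserts, and RNA was taken separately from somata and from processes. PTX, a blocker of GABA-A receptors that raises network activity and sets off homeostatic downscaling of synapses, was in the medium from day 18 to day 20 in vitro, and control cultures received the vehicle instead. Each of the 4 conditions (somata control, somata PTX, processes control and processes PTX) had 2 libraries made after ribosomal RNA depletion, 8 in all. Nothing in the labels or methods ties the replicates of a condition to separate cultures or animals, so the p-values measure the spread between these libraries, which may be technical. Libraries with the same replicate number deviated together, and the main model does not separate this from the spread. A model with the replicate number as a term, the replicate block, was an alternative.

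Neurons and glia exchange amino acids across the plasma membrane and across the membrane of lysosomes. In the heteromeric transporters, a light chain of the SLC7 family carries the amino acids and the glycoprotein encoded by Slc3a2 (4F2hc, CD98) brings the light chain to the cell surface. SLC36A1, SLC36A4 and SLC7A14 are known from lysosomes and other inner membranes. There amino acid transport meets the mTORC1 kinase, which couples amino acid supply to protein synthesis.

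Library totals ran from 12290890 to 18455662 counts. Genes outside the mitochondrial genome received 9517542 to 11227599 counts per library in somata and 4702054 to 5491237 in processes, so the process values rest on fewer reads. Levels are CPM, a gene's counts relative to all counts of its library, after TMM scaling, which sets the libraries to a common typical gene, and they are not divided by transcript length, so they compare libraries and not genes. A difference is a log2 fold change between conditions from 1 model over all 14309 tested genes, with its standard error (SE), and a gene is called where the adjusted p of edgeR's quasi-likelihood test was under 0.05. The cultures held glia as well as neurons. In processes control libraries Gfap, the intermediate filament of astrocytes, was at 11096 and 9369 CPM, and Map2, the dendritic microtubule protein, at 4687 and 4518 CPM. In such bulk samples fewer cells of a type and less RNA per cell cannot be told apart.

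The bases just upstream of the annotated start of 4 genes are shown: the genes the set was chosen by, and Slc7a11, the gene with the widest difference between compartments. The windows are from RefSeq for assembly GRCr8, a later assembly than the Rnor_6.0 build the authors mapped to. All 8 genes were matched in that table, Slc3a2 with 2 windows. Each stretch is 100 bases and ends at the base before the start: chr10:39824935-39825034 on the plus strand for Slc36a1, chr15:32212716-32212815 on the minus strand for Slc7a8, chr2:113993681-113993780 on the plus strand for Slc7a14 and chr2:136668265-136668364 on the minus strand for Slc7a11. Capitals mark the letters of the motifs searched.
Slc36a1: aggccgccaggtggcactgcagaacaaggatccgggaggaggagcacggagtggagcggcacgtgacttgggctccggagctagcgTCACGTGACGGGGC
Slc7a8: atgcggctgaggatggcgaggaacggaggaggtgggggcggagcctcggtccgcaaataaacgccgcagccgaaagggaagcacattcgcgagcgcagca
Slc7a14: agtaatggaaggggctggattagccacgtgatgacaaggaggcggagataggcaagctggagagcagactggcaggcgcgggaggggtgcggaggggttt
Slc7a11: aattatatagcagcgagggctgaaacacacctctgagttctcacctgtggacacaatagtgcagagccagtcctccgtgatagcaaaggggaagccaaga

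5 motifs were searched on both strands in the 250 bases before each start. They were the E-box TCACGTGA, close to the element of lysosomal genes (in 0.657% of 33469 windows), the ATF4-C/EBP core TGATGNAA (3.4%), the cAMP response element TGACGTCA (1.59%), the AP-1 site TGANTCA (6.34%) and the antioxidant response core TGACNNNGC of Nrf2 (10.1%). Slc36a1 held TCACGTGA, beginning 14 bases before the start (chr10:39825021-39825028), and the antioxidant response core, beginning 9 bases before it (chr10:39825026-39825034), and these matches share letters. The only other match in the 8 genes was an antioxidant response core in the window of Slc3a2 at its downstream start, on the other strand (chr1:215039707-215039715). A match is a description of these letters and not a binding site.

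**Figure D1:**
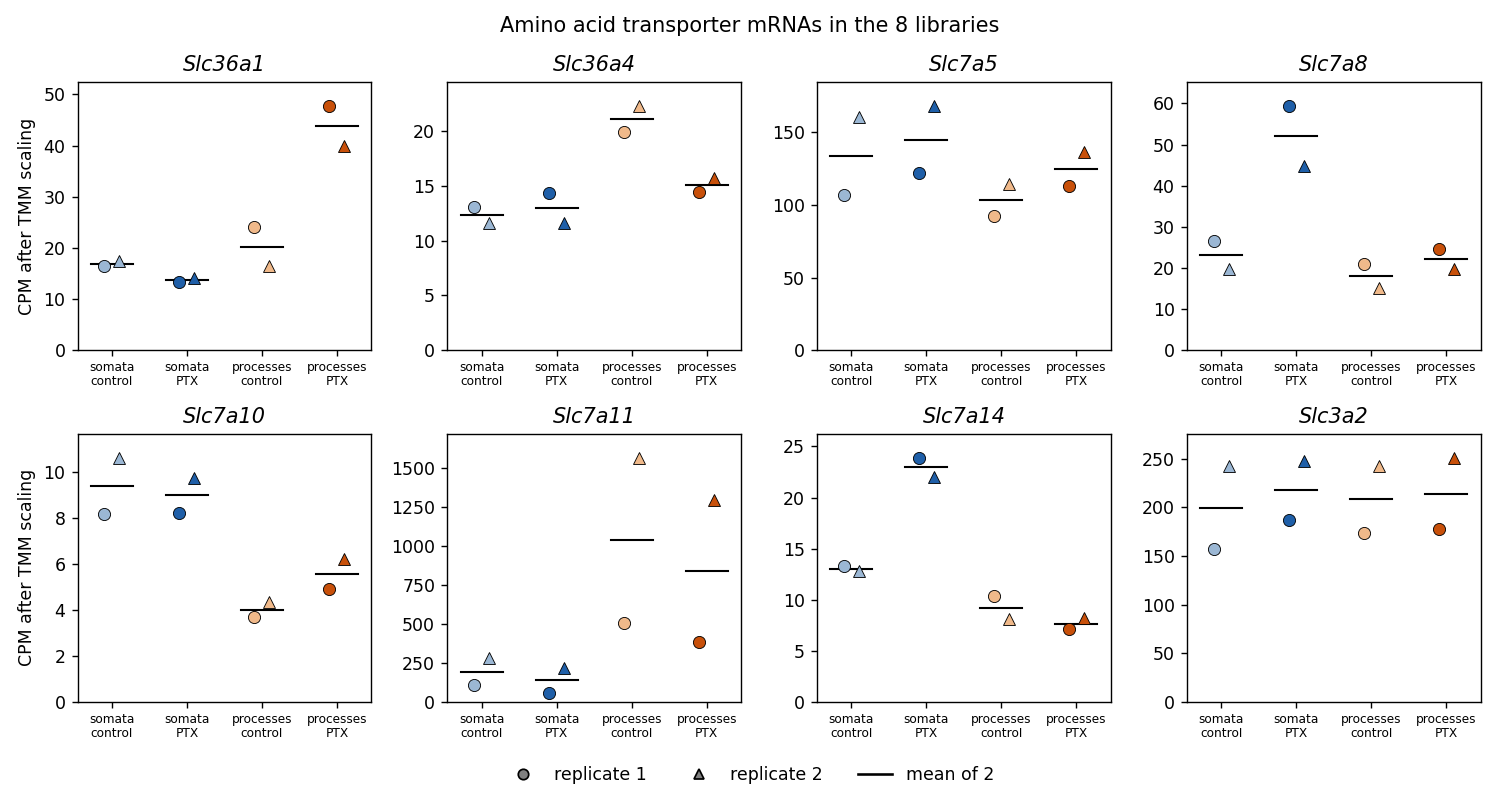
CPM after TMM scaling (y axis, linear, from 0) of the 8 genes in the 4 conditions, with replicate 1 as a circle, replicate 2 as a triangle and their mean as a line. Slc36a1 is highest in processes PTX (47.7 and 39.9 CPM), Slc7a8 and Slc7a14 in somata PTX, and Slc7a11 in processes, with replicate 2 above replicate 1 in all 4 conditions.

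Among the transporters known from inner membranes, Slc36a1 had its highest level in the processes of PTX cultures. Slc36a1 encodes a proton-coupled lysosomal transporter of small neutral amino acids such as glycine, alanine and proline. It was measured at 16.4 and 17.4 CPM in somata control, 13.2 and 14.1 CPM in somata PTX, 24.1 and 16.4 CPM in processes control and 47.7 and 39.9 CPM in processes PTX. Both process libraries with PTX lay above both controls, while both somata libraries with PTX lay below theirs. The difference of PTX against control was -0.31 (log2, SE 0.163) in somata and 1.11 (SE 0.172) in processes, and the PTX response in processes minus that in somata was 1.42 (SE 0.237). Within replicate 1 the ratio of PTX to control was 0.809 in somata and 1.98 in processes, and within replicate 2 it was 0.809 and 2.43. Of the process libraries, control replicate 1 (24.1 CPM) and control replicate 2 (16.4 CPM) were farther apart than any other Slc36a1 pair relative to their mean, and the PTX difference in processes ranged from 0.86 without control replicate 2 to 1.41 without control replicate 1.

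Slc36a4, whose protein is a high-affinity transporter of proline and tryptophan, went the other way in processes. Its levels were 13.0 and 11.6 CPM in somata control, 14.3 and 11.6 CPM in somata PTX, 19.9 and 22.3 CPM in processes control and 14.4 and 15.8 CPM in processes PTX. In processes the PTX libraries lay below both controls, and in somata the libraries overlapped. The difference of PTX against control was -0.48 (log2, SE 0.158) in processes and 0.08 (SE 0.145) in somata, and the response in processes minus that in somata was -0.56 (SE 0.215). The process ratios of PTX to control were 0.725 in replicate 1 and 0.707 in replicate 2.

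Slc7a14, related to the cationic amino acid transporters and found in lysosomes of neurons, was high in a single condition. It was measured at 13.3 and 12.8 CPM in somata control, 23.9 and 22.0 CPM in somata PTX, 10.4 and 8.09 CPM in processes control and 7.11 and 8.23 CPM in processes PTX. Somata PTX stood above every other library, and the control and PTX libraries of processes overlapped. The difference of PTX against control was 0.81 (log2, SE 0.137) in somata and -0.26 (SE 0.179) in processes, and the response in processes minus that in somata was -1.08 (SE 0.225). Its process libraries held 62 to 93 reads, and the process ratio of PTX to control was 0.686 in replicate 1 and 1.02 in replicate 2.

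Of the light chains that pair with Slc3a2, Slc7a8 had the widest somatic PTX difference. Slc7a8 encodes LAT2, an exchanger of large and small neutral amino acids. Its levels were 26.7 and 19.6 CPM in somata control, 59.4 and 44.8 CPM in somata PTX, 20.9 and 15.0 CPM in processes control and 24.7 and 19.7 CPM in processes PTX. The somata PTX libraries lay above all others, and in processes the PTX and control libraries overlapped. The difference of PTX against control was 1.17 (log2, SE 0.196) in somata and 0.30 (SE 0.228) in processes, and the response in processes minus that in somata was -0.88 (SE 0.300). Replicate 1 was above replicate 2 in all 4 conditions, and within replicates the somatic ratios of PTX to control were close, at 2.23 and 2.28, with process ratios of 1.18 and 1.31. The PTX difference in processes depended on the control libraries, at 0.08 without processes control replicate 2 and 0.56 without processes control replicate 1.

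Slc7a5, or LAT1, is the main carrier of large neutral amino acids such as leucine. It was measured at 106.7 and 160.4 CPM in somata control, 122 and 168 CPM in somata PTX, 92.3 and 115 CPM in processes control and 113 and 136 CPM in processes PTX. Control and PTX libraries overlapped in both compartments, with a difference of PTX against control of 0.12 (log2, SE 0.207) in somata and 0.27 (SE 0.213) in processes. Slc3a2, the shared heavy chain, was at 157 and 242 CPM in somata control, 187 and 248 CPM in somata PTX, 174 and 242 CPM in processes control and 177 and 251 CPM in processes PTX. Here too the libraries overlapped, with differences of 0.12 (log2, SE 0.239) in somata and 0.04 (SE 0.242) in processes. The responses in processes minus those in somata were 0.15 (SE 0.297) for Slc7a5 and -0.08 (SE 0.341) for Slc3a2.

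Slc7a10 encodes Asc-1, a carrier of glycine, alanine and D-serine. It was the least read of the 8 genes in processes, with 33 to 62 reads per library there. It was measured at 8.15 and 10.6 CPM in somata control, 8.22 and 9.72 CPM in somata PTX, 3.67 and 4.34 CPM in processes control and 4.93 and 6.23 CPM in processes PTX. The somata libraries overlapped and the process libraries with PTX lay above both controls, with differences of PTX against control of -0.07 (log2, SE 0.180) in somata and 0.48 (SE 0.251) in processes. The process ratios of PTX to control were 1.34 and 1.43 within the replicates.

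Slc7a11 encodes xCT, which takes up cystine in exchange for glutamate, feeds glutathione synthesis and is known from astrocytes. It was measured at 109 and 280.1 CPM in somata control, 60.4 and 221 CPM in somata PTX, 507 and 1563 CPM in processes control and 383 and 1296 CPM in processes PTX. Every process library lay above every somata library, and within each condition replicate 2 was far above replicate 1. The difference of PTX against control was -0.47 (log2, SE 0.712) in somata and -0.30 (SE 0.708) in processes, with errors wider than the differences. Within replicates the ratios of PTX to control were 0.554 and 0.79 in somata and 0.756 and 0.829 in processes, below 1 in all 4 pairs. With 1 library left out the sign was not stable. The somatic difference was 0.36 without somata control replicate 2 and -1.69 without somata PTX replicate 2. The process difference was 0.73 without processes control replicate 2 and -1.43 without processes PTX replicate 2. These fits do not pair the replicates, so leaving out a replicate 2 brings the gap between replicates into the PTX difference.

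**Figure D2:**
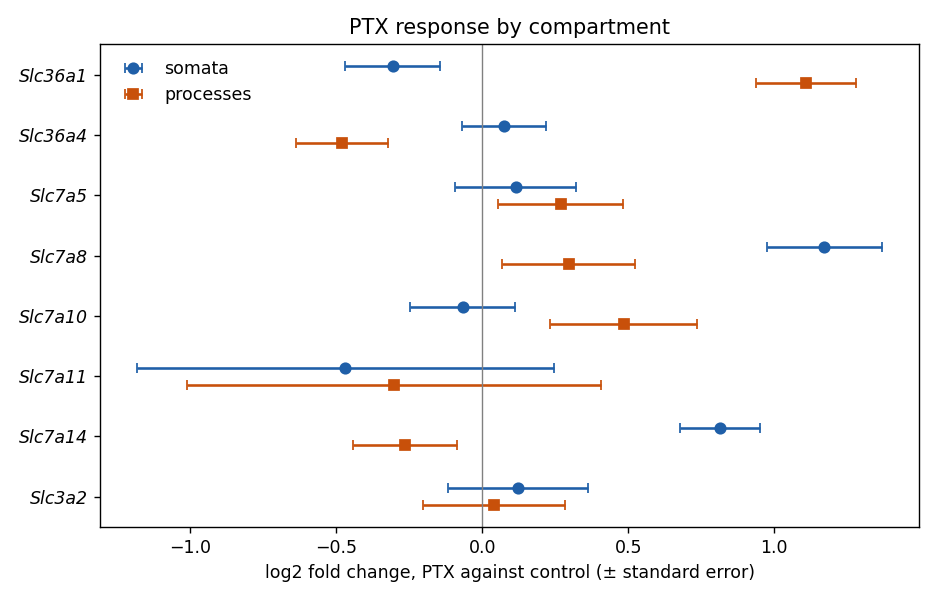
Log2 fold change of PTX against control (x axis) for each of the 8 genes in somata (blue circles) and processes (orange squares), with bars of 1 standard error from the model over 8 libraries. Slc36a1 lies at -0.31 in somata and 1.11 in processes, and Slc7a8 and Slc7a14 lie at 1.17 and 0.81 in somata, while Slc7a11 has the widest bars.

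Between the compartments, averaged over control and PTX cultures, 6 of the 8 genes differed. Slc7a11, Slc36a1 and Slc36a4 were higher in processes (3 of 8, beside 31% of all tested genes) and Slc7a14, Slc7a10 and Slc7a8 were lower (3 of 8, beside 31.9%). The shares of all genes are wide, so a call is common here. These directions are relative to the typical gene, and scaling by library size alone moved the median of all genes from -0.06 to -1.87 (log2) and turned Slc36a1 to -0.86 and Slc36a4 to -1.31, while Slc7a11 was at 0.72 and no longer called, so that 0 were called higher and 7 lower.

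Slc7a11 was higher in processes by 2.49 (log2, SE 0.529, adjusted p = 0.00183, edgeR quasi-likelihood test), or 5.63-fold, with ratios of 4.65 and 5.58 within the replicates of control cultures and 6.35 and 5.86 within those of PTX cultures. Leaving out each library in turn gave 1.93 to 3.11, and all these fits called it. Most astrocyte markers lay in the same direction: 5 of 7 tested were higher in processes and 1 was lower, beside 31% and 31.9% of all genes. The log2 differences were 2.64 for Gfap and 2.21 for the calcium-binding protein S100b. The summed level of the list was 2193 to 3366 CPM in somata and 10313 to 14012 CPM in processes. Gfap made up most of the process sum, at 11096 and 9369 CPM in processes control. The lower marker was Gja1, at 206 and 207 CPM in somata control and 159 and 158 CPM in processes control. With library size alone 2 of the 7 were higher and 5 lower, Gfap (0.82) and S100b (0.40) remaining on the process side. Of the 6 neuron markers 3 were higher in processes (Map2 at 2.21, Rbfox3 and Syn1) and 2 lower (Tubb3 and Snap25), beside the same shares. Their median was 0.13, and with library size alone 1 was higher (Map2) and 5 lower. The part of the astrocyte genes in the Slc7a11 difference was not tested.

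Slc36a1 was higher in processes by 0.97 (log2, SE 0.119, adjusted p = 4.02e-05). The compartments stood 0.26 apart in control cultures and 1.68 apart in PTX cultures, and with control cultures alone the gene was not called. Slc36a4 was higher in processes by 0.50 (SE 0.108, adjusted p = 0.00205), at 0.78 in control and 0.22 in PTX cultures, and with PTX cultures alone it was not called. For both genes the average thus joins a wide and a narrow difference.

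Slc7a14 was lower in processes (log2 fold change -1.04, SE 0.112, adjusted p = 1.49e-05), which was -0.50 in control and -1.58 in PTX cultures. Slc7a8 had -0.80 (SE 0.150, adjusted p = 0.000815), which was -0.36 in control cultures, called there only with the replicate block (adjusted p = 0.191 without it and 0.00873 with it), and -1.24 in PTX cultures. Slc7a10 had -0.95 (SE 0.153, adjusted p = 0.000279), with -1.23 in control and -0.68 in PTX cultures. Slc7a10 was thus the somatic gene of the set whose compartment difference was narrower with PTX, while those of Slc7a14 and Slc7a8 were wider.

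Slc3a2, the heavy chain, had a log2 fold change of 0.02 between the compartments (SE 0.170, adjusted p = 0.928), and Slc7a5 one of -0.29 (SE 0.149, adjusted p = 0.107). With the replicate block Slc7a5 was called lower in processes (-0.28, adjusted p = 0.000896) and Slc3a2 was not (adjusted p = 0.786). Slc7a5 was also called, at -0.42 and -0.40, without somata control replicate 1 or somata PTX replicate 1, and at -0.48 with upper quartile scaling. Library size alone put Slc3a2 at -1.78, near the median of all genes under that scaling.

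**Figure D3:**
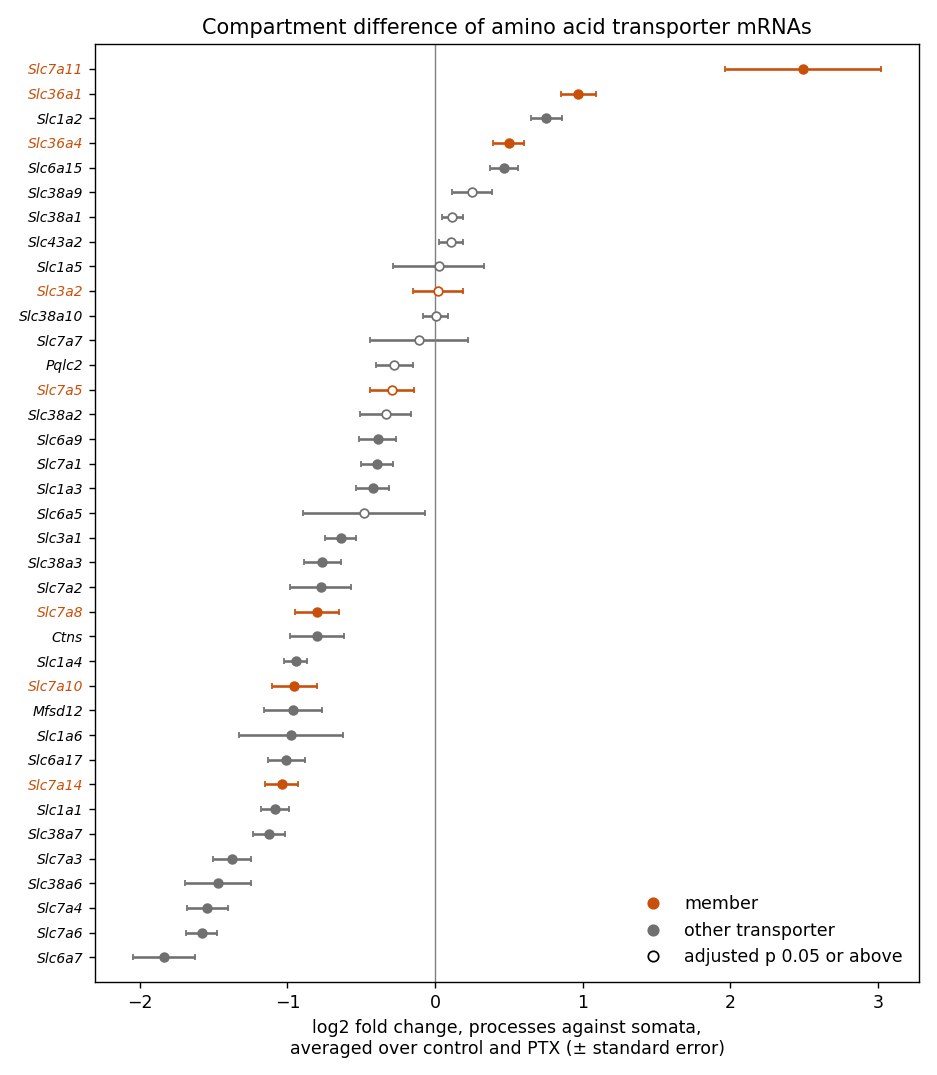
Log2 fold change of processes against somata averaged over control and PTX cultures (x axis, bars of 1 standard error) for the 8 genes (orange) and 29 other amino acid transporters (grey), with open circles where the adjusted p was 0.05 or above. Slc7a11 is at 2.49 and most other transporters lie below 0; with library size alone in place of TMM all 29 others lie below 0, as do Slc36a1, Slc36a4 and Slc3a2.

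Of 47 other amino acid transporter genes, 29 were tested. In the averaged compartment comparison 2 were higher and 18 lower in processes, beside 31% and 31.9% of all tested genes. The median log2 difference was -0.64, against -0.06 for all tested genes and -0.14 for the 8 genes. The lowest were Slc6a7, a proline transporter (-1.84), Slc7a6, a light chain of the y+LAT type (-1.58), Slc7a4 (-1.54) and Slc38a6 (-1.47). The higher ones were Slc1a2, the glial glutamate transporter GLT-1 (0.75, SE 0.103, adjusted p = 8.65e-05), and Slc6a15, a transporter of branched-chain amino acids and proline (0.47, SE 0.0928, adjusted p = 0.00121). Library size alone turned these 2 to -1.07 and -1.35, with all 29 genes lower. Slc1a3, also a glial glutamate transporter, was among the 18 lower ones (-0.42, SE 0.112, adjusted p = 0.0069, quasi-likelihood test).

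With PTX, 3 of these 29 rose in somata and none fell, where 2.09% of all tested genes were raised and 1.5% lowered. Slc6a17, a vesicular transporter of neutral amino acids, was at 147 and 128 CPM in somata control and 302 and 243 CPM in somata PTX (log2 fold change 0.98, SE 0.173, adjusted p = 0.0112). Slc1a4, or ASCT1, a carrier of alanine, serine and cysteine, rose in somata (0.50, SE 0.104, adjusted p = 0.0264) and in processes (0.73, SE 0.112, adjusted p = 0.0067), where it was the 1 gene of the 29 that passed, beside 1.64% of all genes raised and 2.1% lowered. Slc38a10 rose by 0.50 in somata (SE 0.114, adjusted p = 0.0387). Slc1a4 went from 93.3 and 102 to 131 and 145 CPM in somata and from 46.0 and 48.0 to 78.4 and 77.3 CPM in processes, so that both compartments moved alike in direction. None of the 29 was called for the difference of the responses by the quasi-likelihood test, the likelihood ratio test, DESeq2 or with the replicate block (1 of 29 at an unadjusted p under 0.05 in the quasi-likelihood test). Of all tested genes, the quasi-likelihood test called 0% for this difference (572 genes at an unadjusted p under 0.05), the likelihood ratio test and DESeq2 4 genes each, and the replicate block 0.105%. The counts rested on few libraries: in somata the 3 calls became 0 without somata PTX replicate 1 and 1 without each of the other somata libraries (Slc6a17 without somata control replicate 1 or somata PTX replicate 2, and Slc7a3, outside the 3, without somata control replicate 2), and in processes the 1 call was lost without processes control replicate 1. The libraries with the same replicate number deviated together, and with the replicate block 7 of the 29 were called in somata (5 raised, 2 lowered, beside 14% of all genes called) and 6 in processes (5 raised, 1 lowered, beside 11.2%).

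The amino acid response, in which ATF4 switches on transporters (Slc7a11, Slc7a5 and Slc3a2 among them) and biosynthetic enzymes, was read from 28 tested genes outside the set. With PTX 3 of the 28 rose in somata: Stc2, a secreted glycoprotein (1.17, SE 0.222, adjusted p = 0.0162), Cebpb, a transcription factor (0.89, SE 0.161, adjusted p = 0.0127), and Ppp1r15a, which directs dephosphorylation of eIF2 alpha (0.68, SE 0.153, adjusted p = 0.0344). In processes Cebpb alone passed (0.85, SE 0.195, adjusted p = 0.0395). Of all tested genes 2.09% were raised in somata and 1.64% in processes. With the replicate block 12 of the 28 were raised and 1 lowered in somata, beside 14% of all genes called. In processes the block gave 1 raised and 2 lowered, beside 11.2% of all genes called. Between the compartments 5 of the 28 were higher in processes and 10 lower, beside 31% and 31.9% of all genes. With library size alone these counts were 1 and 27.

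Of 33 tested genes of amino acid sensing by mTORC1, none was called with PTX in either compartment by the quasi-likelihood test (5 and 4 at an unadjusted p under 0.05 in somata and processes). DESeq2 also called none, and the likelihood ratio test called 2 lower in processes. The replicate block gave 2 calls in each compartment, beside 14% of all genes called in somata and 11.2% in processes. Between the compartments 13 were higher in processes and 10 lower, beside 31% and 31.9% of all genes. With library size alone these counts were 1 and 31. Another list held 10 tested genes of glutathione synthesis and the Nrf2 response, the pathway that uses the cystine xCT brings in. Of these 10, 2 rose with PTX in both compartments, beside 2.09% of all genes raised in somata and 1.64% in processes. Gclc, the catalytic subunit of the enzyme that starts glutathione synthesis, went from 50.6 and 59.7 to 84.6 and 117 CPM in somata (0.87, SE 0.176, adjusted p = 0.0219) and from 45.0 and 54.1 to 89.4 and 115 CPM in processes (1.05, SE 0.185, adjusted p = 0.0135). Gpx1, a glutathione peroxidase, rose by 0.53 in somata (SE 0.111, adjusted p = 0.0249) and 0.52 in processes (SE 0.111, adjusted p = 0.03). Gclc was thus higher with PTX in each replicate of both compartments, where Slc7a11 was lower in each. Between the compartments 4 of the 10 were higher in processes and none lower, beside 31% and 31.9% of all genes. With library size alone all 10 were lower.

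The replicates of a condition differed in a way shared by several members, which was compared after the data had been seen. In the model with the replicate block, Slc7a11 was higher in replicate 2 than in replicate 1 by 1.65 (log2, SE 0.0784, adjusted p = 2.53e-12), or 3.15-fold, the 24th largest of 14309 genes by size, with CPM ratios of 2.57, 3.67, 3.09 and 3.38 in somata control, somata PTX, processes control and processes PTX. Its partner Slc3a2 was higher by 0.50 (SE 0.0649, adjusted p = 1.41e-05) and Slc7a5 by 0.42 (SE 0.0678, adjusted p = 0.000222), making 3 of 8 genes higher in replicate 2 beside 5% of all genes. Slc7a8 was lower by 0.41 (log2 fold change -0.41, SE 0.0739, adjusted p = 0.000579), 1 of 8 beside 7.11%. Slc36a1 (-0.13), Slc36a4 (-0.08), Slc7a14 (-0.09) and Slc7a10 (0.31) were not called.

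**Figure D4:**
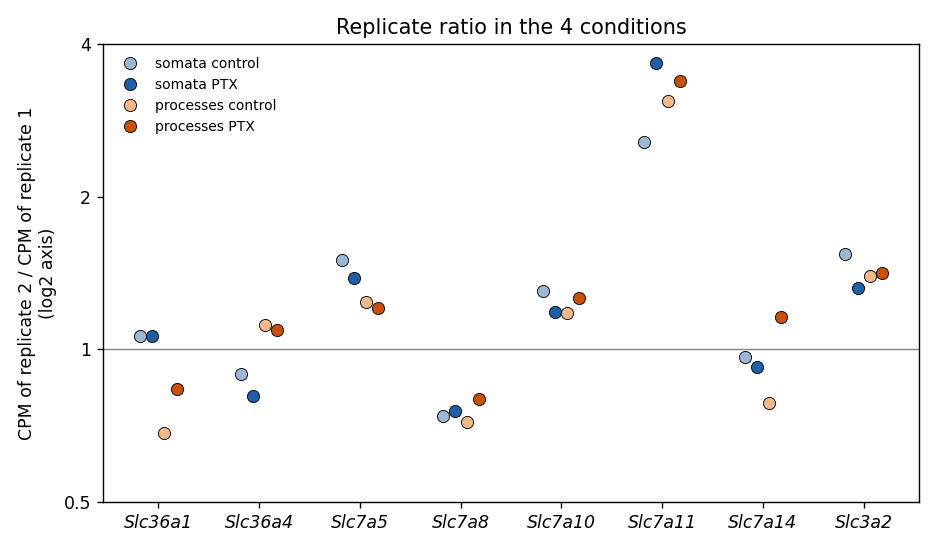
CPM of replicate 2 divided by CPM of replicate 1 (y axis, log2 scale) for the 8 genes, with a point for each of the 4 conditions and a line at 1. Slc7a11 lies between 2.57 and 3.67 in all conditions, Slc7a5 and Slc3a2 lie above 1, and Slc7a8 lies below 1.

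The same comparison was read for the lists, with genes named after their values were seen. Of the 28 amino acid response genes 12 were higher in replicate 2 and none lower, beside 5% and 7.11% of all genes. Among the 12 were the transcription factors Atf5 (0.93) and Atf4 (0.28), the pseudokinase Trib3 (0.84) and the serine synthesis enzyme Phgdh (0.57). Of the 10 glutathione and Nrf2 genes 4 were higher, among them Hmox1 (0.73), which breaks down heme, and Nfe2l2 (0.46), which encodes Nrf2. Markers of the oligodendrocyte lineage moved with the replicate number as well, 7 of 10 being higher in replicate 2 with 0.96 for the myelin gene Mbp, and their summed level was 351 and 542 CPM in replicates 1 and 2 of somata control and 515 and 657 CPM in those of processes control. Of 7 astrocyte markers 2 were higher in replicate 2, and of 6 neuron markers 2 were lower. What the replicate numbers stand for is not given in the sources used here, and the part of these cell type markers in the member differences was not tested.

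Most markers of other cell types were low. The 10 microglia markers in the table summed to 0.586 to 2.66 CPM per library with none passing the filter. The endothelial and pericyte genes summed to 8.91 to 23.0 CPM per library, with Cldn5 at 0 in every library. Pdgfrb alone was at 10.9 to 13.3 CPM in somata and 5.86 to 8.13 CPM in processes, a level like that of some members. In this list 3 genes were tested. Of these 3, Kdr, a VEGF receptor, rose with PTX in somata from 3.48 and 2.31 to 8.11 and 7.23 CPM (log2 fold change 1.41, SE 0.242, adjusted p = 0.0102), and none was called in processes. No other gene of this list was called with PTX and most did not pass the filter, so the rise is that of Kdr alone. With PTX the summed astrocyte level was 2193 to 2884 CPM in somata against 3062 to 3366 CPM in control, and 10313 to 11633 against 12449 to 14012 CPM in processes. Gfap was the largest part of each of these sums. 1 of the 7 astrocyte markers was called lower with PTX in somata and none in processes, where their part in the lower Slc7a11 values with PTX was not tested. Of the neuron markers 1 of 6 was lower with PTX in each compartment, and of the 10 oligodendrocyte lineage markers none was called with PTX in either. Of all tested genes 1.5% were lowered in somata and 2.1% in processes. With the replicate block the markers called lower in somata and processes were 2 and 1 of the 7 astrocyte, 3 and 4 of the 6 neuron and 2 and 1 of the 10 oligodendrocyte lineage genes. The block called 14% of all genes in somata and 11.2% in processes, in either direction.

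The genes most like Slc36a1, Slc7a8 and Slc7a14 over the 8 libraries were taken by the Pearson correlation of log2 CPM among the 10206 tested genes whose mean level was 5 CPM or more. The libraries share conditions and replicate numbers, so the values are descriptions. For Slc36a1 they were Phc1 (r = 0.963), Ndufa8 (0.952) and Commd7 (0.951), none of them with a somatic log2 fold change as low as that of Slc36a1 (0.06, 0.06 and -0.04) and with process values of 0.61, 0.78 and 0.24. For Slc7a8 they were Ndel1 (r = 0.983), Plagl1 (0.981) and Sgip1 (0.980), whose PTX differences were 0.57, 0.79 and 0.38 in somata and 0.18, 0.44 and 0.12 in processes. For Slc7a14 they were Gadd45g (r = 0.983), Trappc13 (0.976) and Zbtb17 (0.973), with 1.06, 0.37 and 0.28 in somata and -0.14, -0.17 and -0.17 in processes.

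Reads of overlapping genes can mix with those of a member, since the strand setting of the counting is not given in the sources used here. In the GRCr8 gene table Slc36a1 and Slc7a14 each overlap 1 long non-coding RNA, Slc7a8 overlaps 2, Slc36a4 overlaps 1 predicted protein-coding gene and Slc7a10 overlaps Lrp3. Slc7a5, Slc7a11 and Slc3a2 overlap no gene there.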

How the data were processed

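Ribosome-depleted total RNA of somata and processes was sequenced from strand-specific libraries. Per the study's methods the authors trimmed reads with Trimmomatic, mapped them to Rnor_6.0 with Subread subjunc, counted them with featureCounts on Ensembl genes and summed by symbol, whereas the submitters' processing notes name STAR, featureCounts and edgeR. The deposited values are whole-number counts per symbol without normalization, mapped to samples by column name, and 0 columns were left unmatched. The authors' comparison tables of fold changes, likelihood ratios and p-values were not used.

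A gene was tested if 2 or more libraries held over 20 of its reads (14309 genes). With edgeR 4.0.16 in R 4.3.3, TMM factors (1.81 to 1.92 in somata, 0.487 to 0.571 in processes) and a model of 1 coefficient per condition over 8 libraries were fitted, and the quasi-likelihood test was adjusted by Benjamini-Hochberg over all tested genes. The SE is the log2 fold change over the square root of F. Tests were checked on simulated counts with 1 dispersion for all genes and no effect shared by replicate number. That check therefore does not cover the shared replicate deviation of these data. The likelihood ratio test, DESeq2 1.42.0, other scalings and filters, compartments or cultures alone, the replicate block and leaving out each library were alternatives. Replicate counts differed beyond sampling noise (chi-square per degree of freedom 9.11 to 21.1).

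The labels number the replicates, and these numbers pair the libraries: the replicate 2 minus replicate 1 differences correlated with r of 0.274 to 0.54 in all 6 pairs of conditions. The block lowered the common dispersion from 0.0132 to 0.00459.

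The members and lists were chosen with earlier results of these data known. Named were all members, up to 4 called genes per pathway list and PTX contrast, the 4 widest called transporters in each direction between compartments, the 3 genes most like Slc36a1, Slc7a8 and Slc7a14, and marker lists with their most abundant genes. Genes named for the replicate comparison, and the comparison itself, were added after seeing the data. Further marker genes (Kdr, Pdgfrb, Gja1, Rbfox3, Syn1, Tubb3, Snap25), Slc1a3, Slc7a3 and Slc6a5 were named after their values were seen. Protein sequences and transcript lengths were not used here.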

Additional observations from a re-analysis of the deposited data

Results flagged for a closer look

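Slc36a1 had opposite PTX differences in the compartments: the log2 difference of the responses was 1.42 (SE 0.237), from -0.31 in somata and 1.11 in processes, with both PTX libraries below the controls in somata and above them in processes. The gene was chosen for this contrast, so the difference is given as a description and without a p-value.

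Slc6a5, the neuronal glycine transporter GlyT2 and no member of the set, had a difference of responses of -2.27 (log2, SE 0.827), from 1.59 in somata and -0.67 in processes. Its counts were 7 and 9 in somata control, 23 and 28 in somata PTX, 4 and 5 in processes control and 2 and 4 in processes PTX. It was singled out because all its PTX libraries lay on opposite sides of their controls in the compartments. The quasi-likelihood test did not call it for the difference, and of all tested genes it called 0%. At these counts no process change is resolved.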

How the results depend on the processing

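The 6 calls between compartments held under the likelihood ratio test, DESeq2, RLE scaling, with mitochondrial genes left out of the scaling and the stricter filter. Slc7a5 made a call of its own in others (7 with upper quartile scaling, no filter or the replicate block), and 4 remained with control cultures only and 5 with PTX cultures only. Library size alone reversed Slc36a1 (-0.86), Slc36a4 (-1.31) and Slc3a2 (-1.78), with the median of all genes at -1.87. Leaving out each library gave 6 to 7 calls. For the 29 other transporters, the 3 calls with PTX in somata became 6 with the likelihood ratio test, 6 with no filter and 7 with the replicate block, and 0 to 3 with a library left out. The 1 call in processes became 3 with the likelihood ratio test, 3 with DESeq2, 2 with library size alone, 4 with no filter and 6 with the replicate block, and 0 to 2 with a library left out. The causes were not tested. In the averaged comparison the block changed no call of a member but that of Slc7a5, and with control cultures alone it added Slc7a5 (adjusted p = 0.00345, against 0.172 without it) and Slc7a8 (0.00873, against 0.191). Replicate 2 against replicate 1 gave 4 calls in every fit but library size alone (5, Slc7a10 added), and every library left out gave 4. Of 696 member values under an alternative, 682 were counted as unchanged, 7 became called, 4 were no longer called and 3 reversed. For the compartment and replicate comparisons, unchanged meant the same side of the threshold, and a reversal was counted only for a called gene. For the PTX responses it meant a value within the replicate spread of the main one. A PTX response that was not called could thus change sign and still count as unchanged, as with Slc7a11. Leaving out 1 of the 2 libraries of a condition shifts a PTX response by less than that spread almost by construction. For the PTX responses the count of unchanged values is therefore no evidence of stability. Depth limits the process values of Slc7a10 and Slc7a14 most. No measure of total RNA per compartment was used here, so compartment differences are relative to the typical gene.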
